A study of Mus musculus with 4 samples.

Results

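Collagen genes were followed across the cell classes of the newborn mouse oviduct and uterus. The members are all genes whose symbol is Col, a number, the letter a and a number with nothing after it, which gave 44 of the 31053 genes listed. They were grouped by the kind of assembly that their chains form, into 11 fibrillar, 8 basement membrane, 9 FACIT (fibril-associated collagens with interrupted triple helices) and 16 other members, the last holding among others the beaded-filament type VI, the network-forming type VIII and the transmembrane types. Single-cell RNA libraries had been made from wild-type, untreated CD1 mice at postnatal day 3, with 2 libraries of the oviduct and 2 of the uterus. Each library came from a pool of 3 or 4 neonates, which gave both of their organs, and the enzymes used to free the cells were DNase I, Collagenase B and Dispase II. The libraries of an organ are separate pools, so that p-values of the organ comparisons measure the spread between pools. Those of a class against mesenchyme measure the spread of the class difference over the libraries of both organs, which includes any difference between the organs. Which oviduct and uterine libraries share neonates is not given in the sources used here.

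Collagens are secreted proteins in which a set of alpha chains, each the product of its own gene, winds into a triple helix. Fibrillar collagens such as types I and III give connective tissue its tensile strength, type V chains help to start and limit the fibrils, and FACIT collagens sit on fibril surfaces. Type IV collagen forms the network of basement membranes, in which the endostatin-type collagens XV and XVIII are also found, and type VI collagen forms beaded filaments close to cells. In the female tract these proteins surround the duct epithelium, the smooth muscle coat, the vessels and the serosal mesothelium.

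The genes of the type IV chains stand in 3 head-to-head pairs. By RefSeq gene spans on GRCm38.p6, Col4a1 and Col4a2 on chromosome 8 overlap by 85 bases, Col4a4 and Col4a3 on chromosome 1 overlap by 114 bases, and Col4a6 and Col4a5 on the X chromosome leave a gap of 1274 bases. Shown are the upstream stretches of Col4a6 and Col4a5, a pair whose members both differed between the organs in mesenchyme, and of Col8a1 and Col8a2, the type VIII chains, which differed there in opposite directions. The sequences come from RefSeq promoter windows of that build and run 5′ to 3′ on the strand of the gene named. They were limited to bases outside every RefSeq gene span and every GENCODE M21 exon, and carry the CCAAT box (CCAAT) or the GC box (GGGCGG, on the other strand CCGCCC) in capitals.
Col4a6: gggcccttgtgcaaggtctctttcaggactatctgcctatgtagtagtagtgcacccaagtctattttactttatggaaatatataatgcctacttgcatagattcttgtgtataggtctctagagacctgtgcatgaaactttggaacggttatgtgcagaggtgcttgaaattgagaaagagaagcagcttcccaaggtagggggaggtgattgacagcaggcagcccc
Col4a5: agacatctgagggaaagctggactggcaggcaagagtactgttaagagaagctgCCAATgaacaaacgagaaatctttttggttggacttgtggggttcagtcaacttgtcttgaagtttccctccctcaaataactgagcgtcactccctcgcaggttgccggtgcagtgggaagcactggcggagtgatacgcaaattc
Col8a1: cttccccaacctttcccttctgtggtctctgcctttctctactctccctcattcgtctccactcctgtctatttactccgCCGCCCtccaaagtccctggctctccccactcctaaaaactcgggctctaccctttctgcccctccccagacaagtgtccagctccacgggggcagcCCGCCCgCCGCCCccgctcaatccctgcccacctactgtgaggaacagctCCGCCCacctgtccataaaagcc
Col8a2: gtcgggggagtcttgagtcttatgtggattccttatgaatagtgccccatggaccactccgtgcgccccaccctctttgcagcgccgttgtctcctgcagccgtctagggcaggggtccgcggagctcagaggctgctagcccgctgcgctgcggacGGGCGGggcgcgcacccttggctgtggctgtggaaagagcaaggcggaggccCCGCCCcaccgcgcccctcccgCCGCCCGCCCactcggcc

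The Col4a6 stretch (chrX:141474096-141474326, minus strand) holds none of the 3 motifs searched on both strands, of which the TATA box (TATAAA) is the third. The Col4a5 stretch (chrX:141475169-141475369, plus strand) holds 1 CCAAT box, 196 bases before the start given by its promoter entry. The Col8a1 stretch (chr16:57754738-57754987, minus strand) and the Col8a2 stretch (chr4:126286544-126286792, plus strand) hold 4 GC boxes each, of which the last pair in Col8a2 overlaps. A CCAAT box was present in 28.6% of 32851 RefSeq promoters in the window of the Col4a5 stretch, and a GC box in 32.7% and 32.6% in the windows of Col8a1 and Col8a2. In the whole 250 bases before the start, over the 35 members with a promoter entry, 21 (60.0%) held a GC box, against 32.9% of genes. The CCAAT box was held by 12 of the 35 (34.3%, against 34.5% of genes) and the TATA box by 5 (14.3%, against 13.0%). These matches are letters in a window and describe no binding.

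Of 26619 barcodes called as cells, 20375 passed filters on detected genes, mitochondrial RNA and doublets, and 15334 of these (75.3%) were assigned by marker genes to 7 classes with at least 20 cells in every library. No collagen was among the markers. The tissue labels name mesenchymal and epithelial cells, and smooth muscle, pericytes, mesothelium, blood endothelium and myeloid cells were found beside them, each with its own marker list detected in full. Mesenchyme held 3613 and 2623 oviduct cells, with 1360 and 1454 from the uterus, and epithelium held 149 and 253 against 48 and 58. The sums of UMIs (unique molecular identifiers, 1 per captured molecule) per class and library ran from 269909 in myeloid cells to 48355362 in mesenchyme. Levels are given as CPM, the UMIs of a gene scaled to a common total of UMIs in its class (counts per 1000000), in the order oviduct library 1, oviduct library 2, uterus library 1, uterus library 2. Each transcript is counted by 1 tag at its 3′ end, so that CPM can be set side by side between chains without a correction for length. Fold changes are log2 values ± SE from the quasi-likelihood F-test, coded oviduct minus uterus or class minus mesenchyme, and a member is called at an adjusted p under 0.05 over all genes tested.

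Several measured facts stand beside every comparison of the organs below, and alternatives were run for the clusters, the gate, the cell filter and free RNA. Of the mesenchyme cells, 81.4% and 82.0% of the oviduct libraries and 54.6% and 49.6% of the uterine ones lay in clusters without at least 10 mesenchyme cells from every library, although no collagen had been used for clustering. For smooth muscle these shares were 92.2% and 91.7% for oviduct cells, 87.0% and 89.0% for uterine ones, with cluster 10 holding 344 and 246 oviduct cells against 1 and 1, and cluster 3 holding 9 and 23 against 379 and 355. Median levels of a class's own markers were lower in the uterus in mesenchyme and smooth muscle: the mesenchyme list stood at 32.9 and 32.3 counts per 10000 in oviduct mesenchyme against 13.5 and 14.3, and the smooth muscle list at 84.8 and 78.3 in oviduct smooth muscle against 47.2 and 50.6. They were also lower in uterine pericytes, blood endothelium and myeloid cells. In mesothelium they were higher in the uterus, at 19.2 and 18.8 against 21.1 and 20.4, and in epithelium the organs overlapped. In smooth muscle the mesenchyme list was lower in the uterus too, at 20.5 and 20.3 against 12.2 and 11.7. The smooth muscle list in mesenchyme was slightly higher there, at 6.34 and 6.74 against 7.26 and 7.98. Of the mesenchyme, 14.5% and 15.6% of the oviduct cells and 45.6% and 43.6% of the uterine cells scored close to the boundary with smooth muscle, and 1594 cells near it were given to no class. With only the cells of clusters that held a class in every library, 25 of 33 tested members were called between the organs in mesenchyme, from 2495 cells, where 19.8% of all genes were called, and 16 of 24 in smooth muscle, from 298 cells, where 12.3% were. Those smooth muscle cells came from cluster 8, led by the cell cycle genes Cenpf, Cenpa and Cenpe and named mesenchyme by its cells as a whole, and from cluster 11, which got no class and had a median of 1257 UMIs. The retained mesenchyme still differed in its mix. Cluster 9 held 374 and 255 oviduct cells against 47 and 31 uterine ones, and cluster 6 held 46 and 45 against 324 and 377. These counts therefore do not compare like cells between the organs. The filters removed 11.4% and 13.8% of oviduct barcodes and 29.0% and 28.7% of uterine ones. Free RNA was bounded from droplets of at most 100 UMIs, and the bound is the largest share of a gene's UMIs in a class that such RNA could supply. The bounds of Col1a1 and Col3a1 were at most 3.3% in mesenchyme, but ran from 57.4% to 100% in epithelium, from 45.0% to 100% in blood endothelium and from 45.3% to 100% in myeloid cells. Libraries shared 8 to 15 barcodes per pair, out of at least 5716.

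All 44 members together reached 10620 and 11347 CPM in oviduct mesenchyme and 6722 and 5997 CPM in uterine mesenchyme. Mesothelium held 8200, 8010, 10898 and 8921 CPM, less than mesenchyme in the oviduct libraries and more in the uterine ones, and was the class in which the uterus stood above the oviduct in both libraries. Pericytes held 7004, 7706, 6071 and 5186 CPM and smooth muscle 6077, 6077, 4493 and 4128 CPM. Blood endothelium held 3754, 4620, 3628 and 3139 CPM, epithelium 568, 542, 606 and 428 CPM, and myeloid cells 743, 912, 337 and 270.5 CPM. The organs overlapped in epithelium and did not overlap in the other 6 classes.

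**Figure D1:**
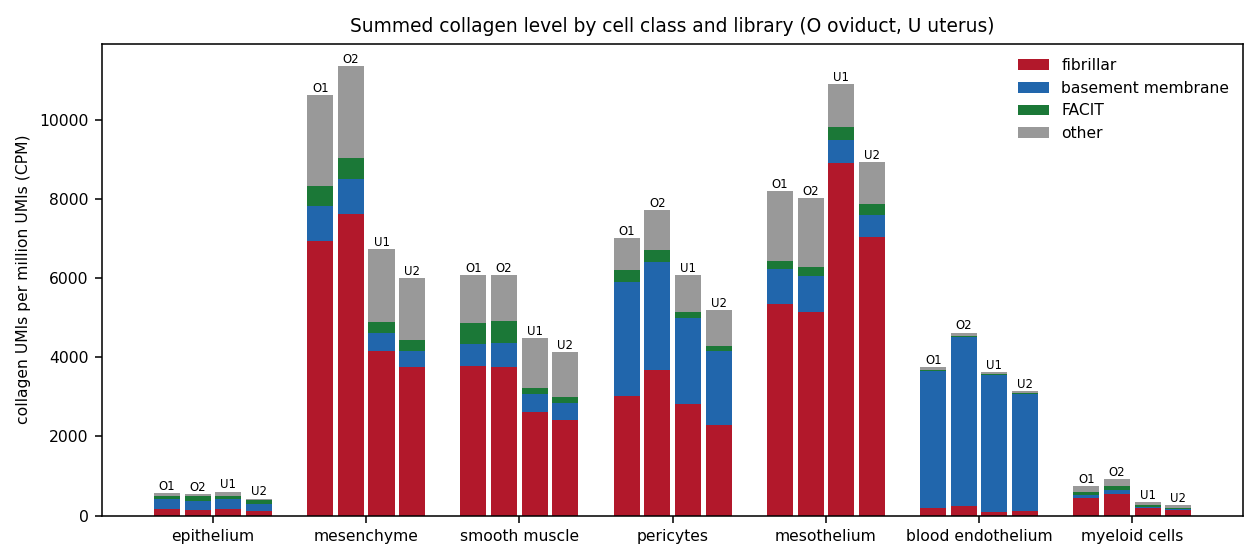
Summed collagen CPM (y axis, linear from 0) in the 7 classes, with 1 stacked bar for each library (O oviduct, U uterus) and colours for the fibrillar, basement membrane, FACIT and other members. Oviduct mesenchyme stands at 10620 and 11347 CPM, and the bars of blood endothelium are mostly basement membrane members.

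The make-up of these totals differed by class. Fibrillar members supplied 61.8% to 67.2% of collagen UMIs in mesenchyme and 58.2% to 62.1% in smooth muscle. In mesothelium they supplied 65.0% and 64.2% of the oviduct sum and 81.7% and 78.9% of the uterine sum. Basement membrane members supplied 92.1% to 95.3% in blood endothelium and 35.4% to 41.3% in pericytes, against 6.5% to 8.3% in mesenchyme. Epithelium, at its low total, took 39.9% to 46.1% from basement membrane members. FACIT members made up 8.6% and 9.1% in oviduct smooth muscle and 3.6% and 3.9% in uterine smooth muscle.

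**Figure D2:**
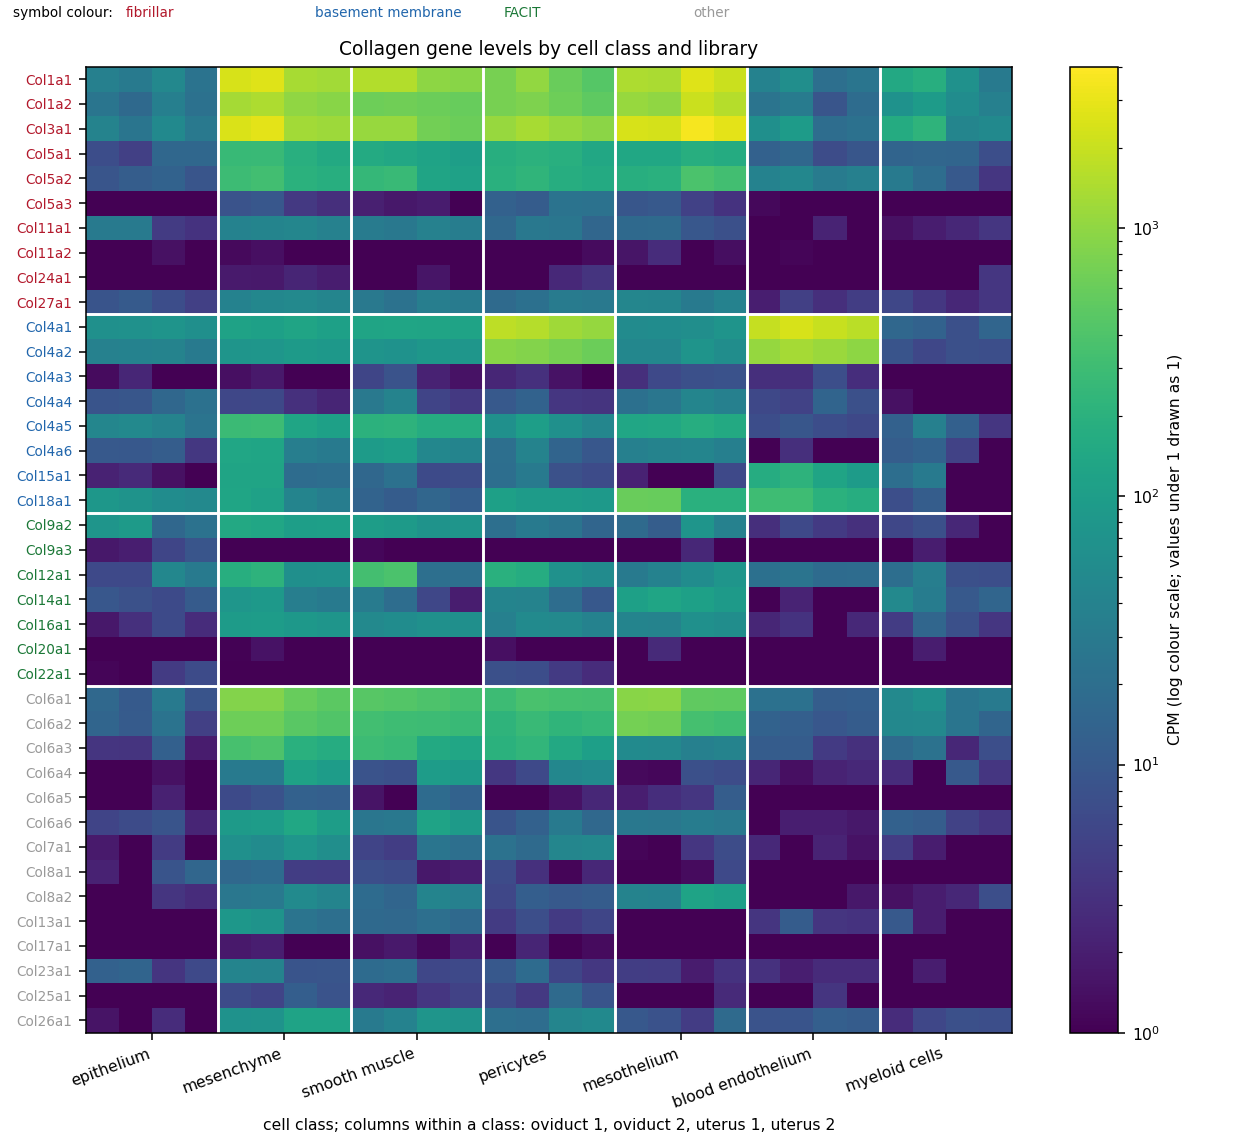
CPM of the 39 tested members (rows, symbols coloured by assembly group) in each of the 4 libraries of the 7 classes (columns), on a log colour scale on which values under 1 are drawn as 1. By the mean over the 4 libraries, Col4a1 and Col4a2 are brightest in pericytes and blood endothelium, and Col1a1, Col1a2 and Col3a1 in mesenchyme and mesothelium. In the oviduct columns Col1a1 is higher in smooth muscle than in mesothelium.

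By mean CPM over the libraries, 30 of the 44 members exceeded 10 CPM in some class. Among the 39 members that entered a test, the highest class was mesenchyme for 19, mesothelium for 11, pericytes for 3, blood endothelium for 3, smooth muscle for 2 and epithelium for 1 (Col9a3). This order pools organs whose levels differ, and only for 7 of the 39 (Col4a2, Col5a3, Col7a1, Col9a2, Col11a1, Col14a1 and Col16a1) did every library of the highest class lie above every library of the next. Within the oviduct the highest class was mesenchyme for 22, mesothelium for 8, smooth muscle for 3, blood endothelium for 3, pericytes for 2 and epithelium for 1, and it lay above the next in both libraries for 33. Within the uterus it was mesenchyme for 13, mesothelium for 13, smooth muscle for 4, blood endothelium for 3, pericytes for 3 and epithelium for 3, with 27 above the next in both libraries. The same class was highest in both organs for 20 of the 39. These counts were not made over all genes, so that they do not set collagens apart from other genes. The other 5 members had 11 to 46 UMIs in all kept cells, too few to order the classes. For Col1a1 the neighbours in the pooled order overlapped, with mesenchyme at 1249 to 2659 CPM and mesothelium at 1389 to 2629 CPM. The pooled ranges of Col6a1 in mesothelium and mesenchyme and of Col5a1 in mesenchyme and pericytes overlapped too. These ranges include the difference between the organs. Within the oviduct alone, Col6a1 was higher in mesothelium and Col5a1 in mesenchyme, each without overlap. Col1a1 separated in each organ, with mesenchyme higher in the oviduct and mesothelium higher in the uterus.

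Against mesenchyme, most tested members were lower in each of the 5 classes compared with it. Epithelium had 32 of 39 tested members called, 2 higher and 30 lower, where 53.2% of all genes were called (25.0% higher, 28.2% lower). Blood endothelium had 34 of 38 called, 5 higher and 29 lower, against 65.5% of genes (29.9% higher, 35.7% lower), and pericytes 30 of 38, 5 higher and 25 lower, against 32.7% (15.4% higher, 17.3% lower). Mesothelium had 25 of 39 called, 5 higher and 20 lower, against 45.8% (23.2% higher, 22.7% lower). In smooth muscle 26 of 39 were called, 3 higher and 23 lower, against 20.1% of genes (10.0% higher, 10.1% lower), and only 5 were called when the library term was left out, with 4.09% of genes. The median member differed from mesenchyme by -3.80 in epithelium, -4.27 in blood endothelium, -0.98 in pericytes, -0.75 in mesothelium and -0.67 in smooth muscle, where the median of all genes lay between -0.07 and 0.00.

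Counts between the organs are given as oviduct-high and uterus-high members. Mesenchyme had 31 of 39 tested members called, 25 oviduct-high and 6 uterus-high, where 37.7% of all genes were called (20.3% and 17.4% by direction). Smooth muscle had 26 of 34 called, 16 oviduct-high and 10 uterus-high, against 30.5% of genes (16.8% and 13.7%). Mesothelium had 15 of 31, 4 oviduct-high and 11 uterus-high, against 8.70% (5.16% and 3.53%). Pericytes had 14 of 31, 9 oviduct-high and 5 uterus-high, against 5.43% (3.76% and 1.67%). Epithelium had 12 of 27, 5 oviduct-high and 7 uterus-high, against 22.9% (14% and 8.94%). Blood endothelium had 8 of 24, all oviduct-high, against 3.83% (3.03% and 0.806%). Myeloid cells had 0 of 6 called by edgeR and 1 by DESeq2, with 366 of 5776 genes at an unadjusted p under 0.05 and 0.0173% of genes called (0.0173% oviduct-high and 0.00% uterus-high). The median member stood at 0.67 in mesenchyme, 0.22 in pericytes, 0.18 in smooth muscle, 0.34 in blood endothelium, 0.07 in epithelium and -0.29 in mesothelium, and the median of all genes in these classes lay within 0.01 of 0.

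**Figure D3:**
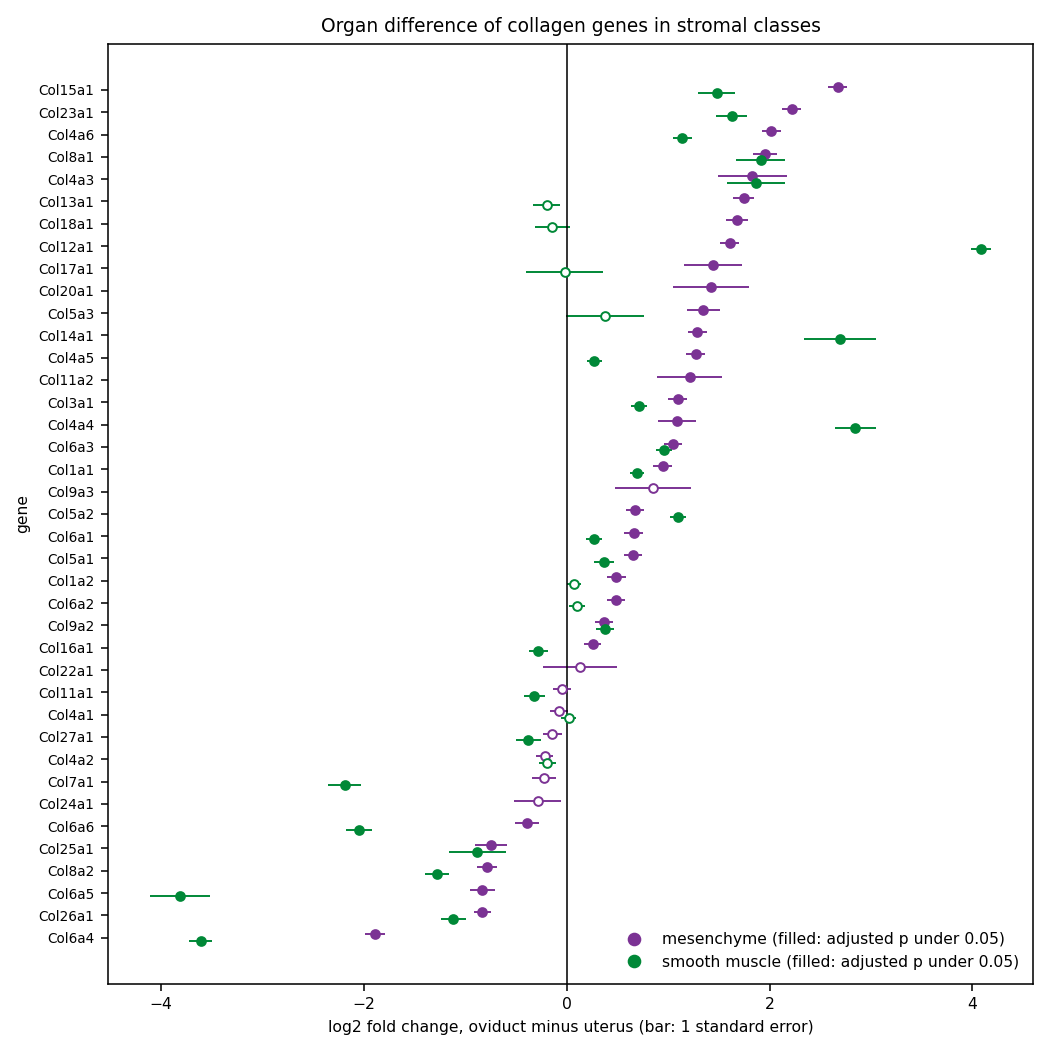
Log2 fold change, oviduct minus uterus (x axis, bars 1 standard error), of the tested members (y axis) in mesenchyme (purple) and smooth muscle (green), with filled points for an adjusted p under 0.05. Col12a1 lies at 1.60 in mesenchyme and 4.09 in smooth muscle, and Col6a4 at -1.89 and -3.61.

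The main fibrillar chains were the most abundant collagens of the stroma. Col1a1, a chain of type I collagen, stood at 2454, 2659, 1364 and 1249 CPM in mesenchyme and at 1554, 1533, 963 and 912 CPM in smooth muscle, with no overlap between the organs. Col3a1, the type III chain, stood at 2513, 2816, 1279 and 1176 CPM in mesenchyme and at 1101, 1096, 693 and 624 CPM in smooth muscle. Col1a2, the partner of Col1a1, was closer between the organs, at 1312, 1445, 1021 and 911 CPM in mesenchyme and 645, 655, 630 and 583 CPM in smooth muscle. In mesenchyme all 3 were called higher in the oviduct, by 0.95 ± 0.09 for Col1a1 (adjusted p = 3.1e-06), 1.09 ± 0.09 for Col3a1 (9.6e-07) and 0.49 ± 0.09 for Col1a2 (9.5e-04). In smooth muscle Col1a1 (0.69 ± 0.07) and Col3a1 (0.71 ± 0.07) were called and Col1a2 was not (0.07 ± 0.07, adjusted p = 0.49). With a stricter gate (a marker score of at least 0.3 and a lead of at least 0.15 between mesenchyme and smooth muscle) the mesenchyme value of Col1a2 became -0.06.

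The partner chains of type I therefore did not move by the same amount. UMIs of Col1a1 per UMI of Col1a2 numbered 1.87, 1.84, 1.34 and 1.37 in mesenchyme and 2.41, 2.34, 1.53 and 1.56 in smooth muscle, without overlap between the organs. In mesothelium the ratio was 1.28, 1.36, 1.29 and 1.30, and in pericytes 0.998, 1.32, 0.938 and 0.860. UMIs of Col3a1 per UMI of Col1a1 numbered 1.02, 1.06, 0.938 and 0.942 in mesenchyme and 0.709, 0.715, 0.719 and 0.684 in smooth muscle. In mesothelium this ratio was 1.69, 1.67, 1.37 and 1.38, higher in the oviduct, and in pericytes 1.55, 1.26, 1.86 and 2.13, higher in the uterus. The organs overlapped in smooth muscle alone among these 4 classes.

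Mesothelium went the other way for these chains. Col1a1 stood there at 1424, 1389, 2629 and 2063 CPM, Col1a2 at 1108, 1024, 2041 and 1589 CPM and Col3a1 at 2407, 2321, 3615 and 2849 CPM. Each was higher in both uterine libraries than in both oviduct libraries, by -0.73 ± 0.13 (adjusted p = 3.3e-03), -0.76 ± 0.13 (3.0e-03) and -0.44 ± 0.12 (0.048). Col5a2, a type V chain, followed with 179, 194, 386 and 321 CPM (-0.91 ± 0.12). Uterine mesothelium held 78 and 60 cells against 459 and 471 in the oviduct. The calls of Col1a1 and Col3a1 were lost without uterus library 1, at -0.54 and -0.26, and that of Col3a1 also without oviduct library 1. Markers of mesenchyme were present in mesothelium of all libraries at medians of 29.5, 25.8, 28.1 and 25.2 counts per 10000. Smooth muscle markers were higher in the uterus there, at medians of 2.18, 2.56, 4.58 and 3.87. So were summed neuron markers, at 222, 150, 482 and 432 CPM, whereas pericyte markers were lower, at 204, 163, 118 and 124 CPM. The part of such RNA in these collagen levels was not tested.

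In pericytes, the mural cells of small vessels, Col1a1 stood at 729, 1059, 601 and 445 CPM and was called (0.74 ± 0.15, adjusted p = 6.0e-03), but not by DESeq2 (0.73, adjusted p = 0.37). Col3a1 at 1129, 1335, 1117 and 949 CPM was not (0.22 ± 0.11, adjusted p = 0.37). In pericytes smooth muscle markers summed to 3865, 3674, 2866 and 2056 CPM and mesenchyme markers to 1176, 1509, 1036 and 814 CPM. Pericyte markers themselves summed to 2901, 3022, 2575 and 2359 CPM. The part of such RNA in the pericyte levels of the members was not tested. Blood endothelium held far less of the chains, with Col1a1 at 39.9, 59.9, 20.8 and 24.9 CPM, Col1a2 at 24.6, 31.3, 8.89 and 18.7 CPM and Col3a1 at 62.7, 94.0, 19.6 and 22.2 CPM. All 3 were called higher in the oviduct there, by 1.12 ± 0.19, 0.98 ± 0.24 and 1.91 ± 0.19, but their free-RNA bounds reached 100%, 100% and 92.3%. With the bounded free RNA subtracted, Col1a1 and Col1a2 were no longer called (1.22 and 0.68), and Col1a2 was not called without uterus library 1 (0.56). Against mesenchyme they were lower in blood endothelium by -5.88 ± 0.11, -5.97 ± 0.21 and -5.57 ± 0.19.

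Epithelium held little of the same chains, and free RNA could supply a large share of it. Col1a1 stood at 36.8, 29.3, 47.9 and 23.8 CPM, with a bound of 74.0% to 100%. Col3a1 was at 41.0, 24.7, 50.8 and 28.6 CPM and Col1a2 at 25.4, 17.3, 35.7 and 22.4 CPM. The organs overlapped for all 3 and none was called between them. Against mesenchyme they were lower by -5.91 ± 0.27, -5.84 ± 0.35 and -5.70 ± 0.24. The same chains lay at 43.1 to 223 CPM (Col3a1) and 29.6 to 182 CPM (Col1a1) in myeloid cells, with bounds of 45.3% to 100%.

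Type V and XI chains are minor fibril components. Col5a1 stood at 265, 279, 186 and 155 CPM in mesenchyme, 159, 142, 124 and 105 CPM in smooth muscle and 13.3, 16.1, 6.86 and 9.16 CPM in blood endothelium. It was called higher in the oviduct in all 3, by 0.65 ± 0.09, 0.37 ± 0.10 and 0.86 ± 0.25. Col5a2 stood at 296, 325, 201 and 182 CPM in mesenchyme (0.67 ± 0.09) and at 253, 275, 125 and 116 CPM in smooth muscle (1.10 ± 0.08). The Col5a1 call in smooth muscle was lost without oviduct library 1 (0.28) or uterus library 2 (0.27), and that in blood endothelium without oviduct library 2 (0.75) or either uterine library (0.66 and 1.14). Col5a3 was highest in pericytes, at 13.2, 11.3, 23.6 and 22.7 CPM, where it was higher in the uterus (-0.94 ± 0.23, adjusted p = 0.018) and above mesenchyme by 1.55 ± 0.41. The organ call was lost without oviduct library 2 (-0.82), and the call over mesenchyme without either uterine library (1.24 and 1.11). That organ difference ran against the one in mesenchyme (1.35 ± 0.16), where Col5a3 stood at 8.44, 9.53, 3.96 and 3.01 CPM. The difference between the classes was not tested.

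Col11a1, a type XI chain, was higher in oviduct epithelium. It stood at 30.1 and 30.8 CPM in oviduct epithelium and 4.29 and 3.33 CPM in uterine epithelium, a difference of 3.15 ± 0.31 (adjusted p = 3.7e-06). In mesenchyme it was level, at 40.1, 41.8, 44.8 and 38.5 CPM (-0.05 ± 0.09), in smooth muscle it stood at 31.0, 28.1, 38.4 and 34.1 CPM (-0.32 ± 0.10) and in mesothelium at 16.8, 17.8, 9.43 and 7.5 CPM (1.03 ± 0.25). The smooth muscle call was lost without oviduct library 2 or either uterine library, at -0.24, -0.25 and -0.38. Leaving out oviduct library 1, oviduct library 2 or uterus library 2 ended the mesothelium call (1.07, 0.99 and 0.89). Col5a1 went the other way in epithelium, at 7.02, 4.79, 15.7 and 16.2 CPM (-1.31 ± 0.31). Its epithelial free-RNA bound was 15.7% to 52.2% and that of Col11a1 0.7% to 21.1%. In epithelium mesenchyme markers summed to 127, 94.0, 174 and 185 CPM and neuron markers to 10.7, 7.35, 65.8 and 62.4 CPM. Blood endothelium markers went the other way, at 71.1, 51.2, 29.3 and 30.9 CPM. The part of such RNA in the epithelial collagen levels was not tested. Col27a1, at 28.7, 22.8, 34.3 and 31.7 CPM in smooth muscle, was called there (-0.38 ± 0.12), and the call was lost without oviduct library 2 (-0.22) or either uterine library (-0.34 and -0.42). Col11a2 in mesenchyme was called at 1.21 while it reached at most 1.38 CPM, and not without uterus library 2 (1.18), and Col24a1 was called between the organs in none of the classes.

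Fibrillar members called between the organs thus numbered 7 higher and 0 lower in the oviduct of 10 tested in mesenchyme, 4 and 2 of 8 in smooth muscle, 1 and 4 of 9 in mesothelium and 1 and 1 of 8 in pericytes. Their medians were 0.66, 0.37, -0.29 and 0.19. Blood endothelium had 4 higher and 0 lower of 6 (median 0.92), and epithelium 1 and 1 of 7 (0.053). In blood endothelium the free-RNA bounds of Col1a1, Col1a2 and Col3a1 were high, as given above. Only Col3a1 was called there under every alternative in which it was tested. Of all genes, 20.3% were higher and 17.4% lower in the oviduct in mesenchyme, 16.8% and 13.7% in smooth muscle, 5.16% and 3.53% in mesothelium, 3.76% and 1.67% in pericytes, 3.03% and 0.806% in blood endothelium and 14% and 8.94% in epithelium. The fibrillar share in epithelium, 28.6%, was close to the 22.9% of all genes.

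The 2 main type IV chains marked the vessel wall. Col4a1 stood at 1902, 2409, 1966 and 1682 CPM in blood endothelium and 1730, 1587, 1242 and 1087 CPM in pericytes, against 118, 113, 128 and 112 CPM in mesenchyme. Col4a2 stood at 1078, 1300, 1136 and 977 CPM in blood endothelium and 931, 853, 742 and 629 CPM in pericytes, against 76.1, 77.8, 92.7 and 83.8 CPM in mesenchyme. The vascular values overlapped no mesenchymal value. Over mesenchyme, Col4a1 was higher by 3.95 ± 0.10 in blood endothelium and 3.52 ± 0.11 in pericytes, and Col4a2 by 3.65 ± 0.10 and 3.20 ± 0.12 (adjusted p from 5.5e-08 to 3.2e-07). Smooth muscle, at 126, 133, 128 and 122 CPM of Col4a1, was called above mesenchyme by 0.18 ± 0.05, a call lost when any library was left out, with values of 0.18, 0.13, 0.21 and 0.17. Epithelium held 64.3, 65.7, 73.6 and 61.4 CPM of Col4a1 and 38.6, 39.7, 40.7 and 30.9 CPM of Col4a2, below mesenchyme by -0.93 ± 0.10 and -1.23 ± 0.15. The free-RNA bound was at most 12.7% and 17.1% for them.

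Between the organs these chains differed little. Col4a1 was called only in pericytes among the 6 classes in which it was tested (0.48 ± 0.11, adjusted p = 0.014), a call lost without uterus library 2 (0.39) and, at adjusted p = 0.066, with the replicate number as a block. Col4a2 was called in none of the 6, with adjusted p values of 0.055 in mesenchyme and mesothelium, 0.091 in pericytes and 0.11 to 0.65 in the others. With the replicate number as a block Col4a2 was called in mesothelium (-0.50, adjusted p = 0.0092). UMIs of Col4a1 per UMI of Col4a2 lay between 1.34 and 1.98 in mesenchyme, smooth muscle, pericytes, blood endothelium and epithelium and between 0.836 and 1.24 in mesothelium. The genes overlap, and whether reads were counted by strand is not given in the sources used here, so that reads from the shared stretch cannot be assigned to 1 of them. An antisense gene, Gm15419, also overlaps Col4a2.

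**Figure D4:**
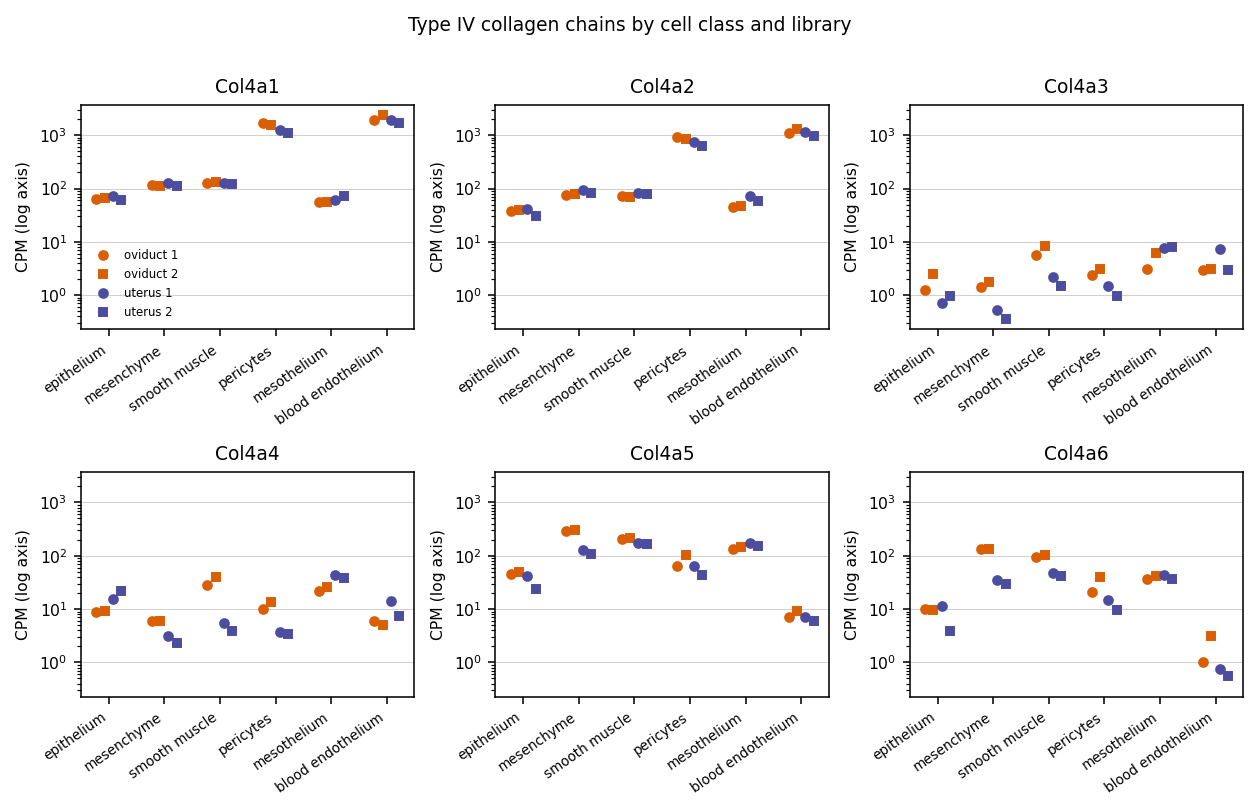
CPM (log axis) of the 6 type IV chains, 1 panel each, in 6 classes (myeloid cells are not drawn), with 1 point for each library, orange for oviduct and blue for uterus. Col4a1 and Col4a2 peak in pericytes and blood endothelium, and the Col4a4 points of smooth muscle separate by organ, at 28.9 and 40.5 CPM against 5.46 and 3.97 CPM.

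The Col4a5 and Col4a6 pair, whose upstream stretches are printed above, was a stromal pair with an organ difference. Col4a5 stood at 286, 299, 130 and 110 CPM in mesenchyme and 205, 215, 172 and 169 CPM in smooth muscle. Col4a6 stood at 134, 132, 35 and 29.8 CPM in mesenchyme, 94.3, 106, 47.2 and 41.8 CPM in smooth muscle and 20.9, 40.6, 14.6 and 9.47 CPM in pericytes. The oviduct values lay above the uterine ones in each of these classes. Col4a6 differed by 2.02 ± 0.09 in mesenchyme (adjusted p = 2.6e-09), 1.14 ± 0.10 in smooth muscle and 1.32 ± 0.29 in pericytes, and Col4a5 by 1.27 ± 0.09 in mesenchyme and 0.27 ± 0.07 in smooth muscle. UMIs of Col4a5 per UMI of Col4a6 were 2.13 and 2.27 in oviduct mesenchyme and 3.70 and 3.68 in uterine mesenchyme, and 2.17 and 2.04 against 3.65 and 4.04 in smooth muscle. Without oviduct library 2 the pericyte call of Col4a6 was lost (0.80). Without oviduct library 2 or either uterine library the smooth muscle call of Col4a5 was lost (0.25, 0.27 and 0.28), and with the stricter gate its value fell to 0.026 and was not called.

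In epithelium Col4a5 stood at 45.2, 48.9, 41.5 and 24.3 CPM and was called higher in the oviduct (0.70 ± 0.22). That call was lost without oviduct library 2 (0.65) or uterus library 2 (0.37), and with the cells of clusters found in all libraries the value was -0.29. Blood endothelium held 1.01, 3.11, 0.762 and 0.561 CPM of Col4a6, below mesenchyme by -6.09 ± 0.22, with a free-RNA bound of 66.5% to 100%. Pericytes lay below mesenchyme by -1.93 ± 0.19 for Col4a6 and -1.56 ± 0.15 for Col4a5. Averaged over the organs, smooth muscle did not differ from mesenchyme detectably for Col4a5 (0.07 ± 0.19) or Col4a6 (0.05 ± 0.17). By the levels given above, these averages join opposite orders. For each chain smooth muscle lay below mesenchyme in both oviduct libraries and above it in both uterine ones.

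The Col4a3 and Col4a4 pair was scarce, with its highest mean levels in smooth muscle in the oviduct and in mesothelium in the uterus. Col4a4 stood at 28.9, 40.5, 5.46 and 3.97 CPM in smooth muscle, 21.5, 26.3, 43.4 and 37.5 CPM in mesothelium, 10.1, 13.7, 3.74 and 3.47 CPM in pericytes, 8.71, 9.34, 15.7 and 21.9 CPM in epithelium and 5.85, 6, 3.17 and 2.35 CPM in mesenchyme. The organs did not overlap in any of these 5 classes, but their order differed. Oviduct libraries were higher in smooth muscle (2.85 ± 0.20, adjusted p = 3.9e-06), pericytes (1.67 ± 0.36) and mesenchyme (1.09 ± 0.18). The mesenchyme value was 0.29 with the stricter gate and 0.094 with clusters found in all libraries, not called in either. Uterine libraries were higher in mesothelium (-0.76 ± 0.18, adjusted p = 0.019) and epithelium (-0.95 ± 0.27, adjusted p = 0.018).
Without oviduct library 1 the calls in mesothelium (-0.61) and epithelium (-0.89) were lost. The mesothelium call also ended without uterus library 1 (-0.65), the epithelium call without uterus library 2 (-0.61) and the pericyte call without oviduct library 2 (1.46). Col4a3 stood at 5.74, 8.24, 2.24 and 1.5 CPM in smooth muscle, with a difference of 1.86 ± 0.29. Against mesenchyme, Col4a4 was higher by 2.04 ± 0.33 in smooth muscle, 2.60 ± 0.36 in mesothelium, 0.73 ± 0.21 in pericytes (-0.18 with clusters in place of gated cells) and 1.49 ± 0.45 in epithelium. Col4a3 was higher by 2.17 ± 0.16, 2.12 ± 0.52 and 1.94 ± 0.53 in smooth muscle, mesothelium and blood endothelium. In epithelium the Col4a4 call was lost without either uterine library (1.31 and 0.99), in pericytes without either oviduct library (0.72 and 0.55), and the Col4a3 call in blood endothelium without uterus library 2 (1.71).

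Collagens XV and XVIII carry an endostatin-like end and associate with basement membranes. Col15a1 stood at 129, 125, 19.0 and 20.2 CPM in mesenchyme, 16.1, 21.8, 6.35 and 6.96 CPM in smooth muscle, 20.2, 29.7, 7.85 and 6.63 CPM in pericytes and 170, 214, 127 and 94.2 CPM in blood endothelium. All oviduct values lay above all uterine values of their class. The differences were 2.67 ± 0.09 in mesenchyme (adjusted p = 2.2e-10), 1.48 ± 0.18 in smooth muscle, 1.74 ± 0.27 in pericytes and 0.83 ± 0.16 in blood endothelium. Mesothelium held at most 6.14 CPM, below mesenchyme by -5.92 ± 0.62, and the libraries there were at 2.20, 0.918, 0.629 and 6.14 CPM. Smooth muscle and pericytes were also below mesenchyme, by -2.24 ± 0.24 and -2.12 ± 0.19, and blood endothelium was above it by 1.38 ± 0.38. An antisense gene, Gm12426, overlaps Col15a1.

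By mean level Col18a1 was highest in mesothelium, at 595, 579, 192 and 191 CPM, and next in blood endothelium, at 303, 309, 197 and 174 CPM. In the uterus these classes overlapped. Col18a1 also separated the organs in mesenchyme, at 131, 116, 42.5 and 33.7 CPM, and in epithelium, at 79.6, 71.1, 56.5 and 50.0 CPM. The oviduct was higher by 1.63 ± 0.11 in mesothelium (adjusted p = 5.6e-06), 0.75 ± 0.14 in blood endothelium, 1.68 ± 0.11 in mesenchyme and 0.64 ± 0.18 in epithelium. In smooth muscle it stood at 13.8, 11.0, 15.2 and 11.8 CPM with overlap, was not called between the organs (-0.14 ± 0.17) and lay below mesenchyme by -2.38 ± 0.35. Mesothelium and blood endothelium were above mesenchyme by 2.14 ± 0.08 and 1.67 ± 0.20. Without uterus library 2 the organ calls in blood endothelium were lost for Col15a1 (0.65) and Col18a1 (0.69), the Col15a1 call above mesenchyme fell away there (1.14), and the epithelial Col18a1 call was lost (0.60). That last call was lost without oviduct library 1 too (0.57), and with the replicate number as a block.

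Basement membrane members counted 6 higher and 0 lower in the oviduct of 8 tested in mesenchyme (median 1.48), 4 and 0 of 7 in pericytes (0.59), 5 and 0 of 8 in smooth muscle (0.71), 2 and 0 of 7 in blood endothelium (0.27) and 2 and 1 of 7 in epithelium (0.64). Mesothelium had 1 and 1 of 8 (-0.37). All genes were higher and lower in the oviduct at 20.3% and 17.4% in mesenchyme, 3.76% and 1.67% in pericytes, 16.8% and 13.7% in smooth muscle, 3.03% and 0.806% in blood endothelium, 14% and 8.94% in epithelium and 5.16% and 3.53% in mesothelium.

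Among FACIT members, Col12a1 had the largest difference between the organs of any tested member in smooth muscle. This chain coats fibrils in muscle sheaths and other loaded tissue. It stood at 335 and 387 CPM in oviduct smooth muscle and 20.8 and 20.8 CPM in uterine smooth muscle, a difference of 4.09 ± 0.10 (adjusted p = 7.6e-09). In mesenchyme it stood at 181, 212, 62.1 and 64.6 CPM (1.60 ± 0.10) and in pericytes at 190, 169, 65.8 and 54.9 CPM (1.55 ± 0.14). The order was reversed in mesothelium, at 30.9, 39.4, 56.0 and 75.0 CPM (-0.89 ± 0.18), and in epithelium, at 6.32, 6.30, 47.2 and 30.5 CPM (-2.45 ± 0.25, adjusted p = 6.6e-06). The organs overlapped in none of these 5 classes. In epithelium its free-RNA bound was 2.2% to 42.2%, and with the cells of clusters found in all libraries alone the difference was -0.54 and not called.

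Col14a1, another chain on fibril surfaces, stood at 77.4, 85.5, 35.1 and 30.7 CPM in mesenchyme, 31.6, 19.2, 5.81 and 1.94 CPM in smooth muscle and 42.1, 41.4, 19.4 and 9.79 CPM in pericytes. It was higher in the oviduct in these by 1.29 ± 0.09, 2.70 ± 0.36 and 1.51 ± 0.23. The pericyte call was lost with the stricter gate (0.87), with clusters in place of gated cells (0.69) and with clusters found in all libraries (0.95). Mesothelium was level, at 111, 130, 112 and 92.1 CPM (0.24 ± 0.14, not called), and lay above mesenchyme by 0.90 ± 0.20, a value that turned to -0.33 with the cells of clusters found in all libraries and was not called without the library block (0.83). Blood endothelium had at most 2.26 CPM, with 0.202, 2.26, 0 and 0.187 CPM in the libraries, below mesenchyme by -6.73 ± 0.35. Smooth muscle lay below mesenchyme by -2.13 ± 0.31.

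Col9a2 was the type IX chain found in quantity. It stood at 148, 133, 105 and 109 CPM in mesenchyme, 102, 93.1, 71.3 and 75.9 CPM in smooth muscle and 20.5, 30.8, 24.7 and 15.2 CPM in pericytes, which lay below mesenchyme by -2.50 ± 0.14. Mesenchyme (0.37 ± 0.09) and smooth muscle (0.38 ± 0.09) were higher in the oviduct, calls that were both lost without oviduct library 1 (0.28 and 0.30) and without uterus library 1 (0.31 and 0.32). With the cells of clusters found in all libraries the mesenchyme value was -0.19. In epithelium it stood at 75.1, 91.6, 15.7 and 22.9 CPM (2.21 ± 0.23, adjusted p = 6.6e-06), and in mesothelium at 17.4, 11.6, 75.5 and 38.9 CPM, the reverse (-1.96 ± 0.27). Its partner Col9a3 was far lower, with 174 and 130 UMIs of Col9a2 per UMI of Col9a3 in oviduct mesenchyme, and Col9a1 had 46 UMIs in all cells. Col9a3 was nevertheless highest in epithelium, at 1.69, 1.98, 5.72 and 9.05 CPM, with the uterus higher (-1.90 ± 0.44) and with epithelium above mesenchyme (2.17 ± 0.63). Without oviduct library 1, oviduct library 2 or uterus library 2 this organ call was lost (-1.77, -2.01 and -1.44), and without either uterine library the call over mesenchyme was lost (1.80 and 1.60). Tcfl5 overlaps Col9a3 on the other strand.

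Col16a1 differed little between the organs, at 94.7, 98.6, 84.4 and 75.0 CPM in mesenchyme, 49.7, 55.6, 63.6 and 61.9 CPM in smooth muscle and 42.4, 40.9, 63.5 and 58.0 CPM in mesothelium. Its organ differences were 0.26 ± 0.09, -0.28 ± 0.09 and -0.53 ± 0.14. Each of these 3 calls was lost without oviduct library 1 (0.27, -0.21 and -0.56). With the replicate number as a block the mesenchyme call was lost. The mesenchyme call was also lost without oviduct library 2 (0.24) or uterus library 2 (0.19) and turned sign with the stricter gate (-0.047), the smooth muscle call without either uterine library (-0.28 and -0.28) and the mesothelium call without uterus library 1 (-0.47). Col22a1, which marks tissue junctions, was low, and in the oviduct highest in pericytes, at 7.65, 7.02, 4.11 and 2.84 CPM, above mesenchyme by 2.97 ± 0.34. In epithelium it stood at 1.12, 0.934, 4.29 and 6.67 CPM (-2.31 ± 0.53), a call lost without either oviduct library (-2.41 and -2.15) or without uterus library 2 (-1.86). Col20a1 was called higher in oviduct mesenchyme (1.42 ± 0.37) at no more than 1.52 CPM, and not without uterus library 1 (1.17). FACIT members counted 5 higher and 0 lower in the oviduct of 7 tested in mesenchyme, 2 and 0 of 5 in pericytes, 3 and 1 of 4 in smooth muscle, 0 and 3 of 4 in mesothelium and 1 and 3 of 6 in epithelium, with 0 of 3 called in blood endothelium. The corresponding percentages of all genes were 20.3 and 17.4 in mesenchyme, 3.76 and 1.67 in pericytes, 16.8 and 13.7 in smooth muscle, 5.16 and 3.53 in mesothelium, 14 and 8.94 in epithelium and 3.03 and 0.806 in blood endothelium.

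The chains of type VI collagen fell into sets that differed in opposite directions between the organs. Col6a1, Col6a2 and Col6a3 form the common filament, and Col6a4, Col6a5 and Col6a6 encode alternative chains related to that of Col6a3. Col6a1 stood at 858, 862, 581 and 493 CPM in mesenchyme and 463, 440, 389 and 346 CPM in smooth muscle. Col6a2 stood at 650, 633, 484 and 421 CPM and 328, 300, 297 and 279 CPM, and Col6a3 at 362, 394, 191 and 169 CPM and 293, 280, 152 and 137 CPM in these classes. In mesenchyme all 3 were higher in the oviduct, by 0.66 ± 0.09, 0.48 ± 0.09 and 1.05 ± 0.09. In smooth muscle Col6a3 (0.96 ± 0.08) and Col6a1 (0.27 ± 0.08) were called and Col6a2 was not (0.10 ± 0.08). The Col6a1 call there was lost without oviduct library 1 (0.22) or uterus library 2 (0.21).

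The alternative chains were higher in the uterus. Col6a4 stood at 29.2, 30.1, 120 and 97 CPM in mesenchyme, 8.43, 7.54, 99.4 and 92.8 CPM in smooth muscle, 3.82, 6.24, 46.7 and 53.7 CPM in pericytes and 1.23, 1.17, 7.55 and 6.82 CPM in mesothelium. Its differences were -1.89 ± 0.10 (adjusted p = 9.4e-09), -3.61 ± 0.11 (2.7e-08), -3.36 ± 0.24 (2.3e-07) and -2.55 ± 0.45 (3.7e-03). Col6a5 stood at 6.53, 8.04, 13.2 and 12.1 CPM in mesenchyme (-0.83 ± 0.12) and 1.53, 0.695, 18.2 and 13.4 CPM in smooth muscle (-3.82 ± 0.30). Col6a6 stood at 90.4, 97.2, 141 and 102 CPM in mesenchyme (-0.39 ± 0.12), 25.6, 28, 125 and 93.0 CPM in smooth muscle (-2.05 ± 0.13) and 8.69, 13.3, 29.2 and 16.7 CPM in pericytes (-1.09 ± 0.29). Every uterine value was above every oviduct value within these classes.
The mesothelium call of Col6a4 was lost without either oviduct library (-2.59 and -2.51), where its free-RNA bound was 58.6% to 100%. The mesenchyme call of Col6a6 was lost without uterus library 1 (-0.17) and turned sign with the stricter gate (0.14), and its pericyte call without oviduct library 1 (-0.83) or uterus library 1 (-0.67). The 3 genes stand next to each other on chromosome 9, with 27823 bases between Col6a6 and Col6a5 and 27854 bases between Col6a5 and Col6a4 and no protein-coding gene between them. Col6a2 and Col6a1 lie 85161 bases apart on chromosome 10. An antisense gene, Gm47575, overlaps Col6a4.

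**Figure D5:**
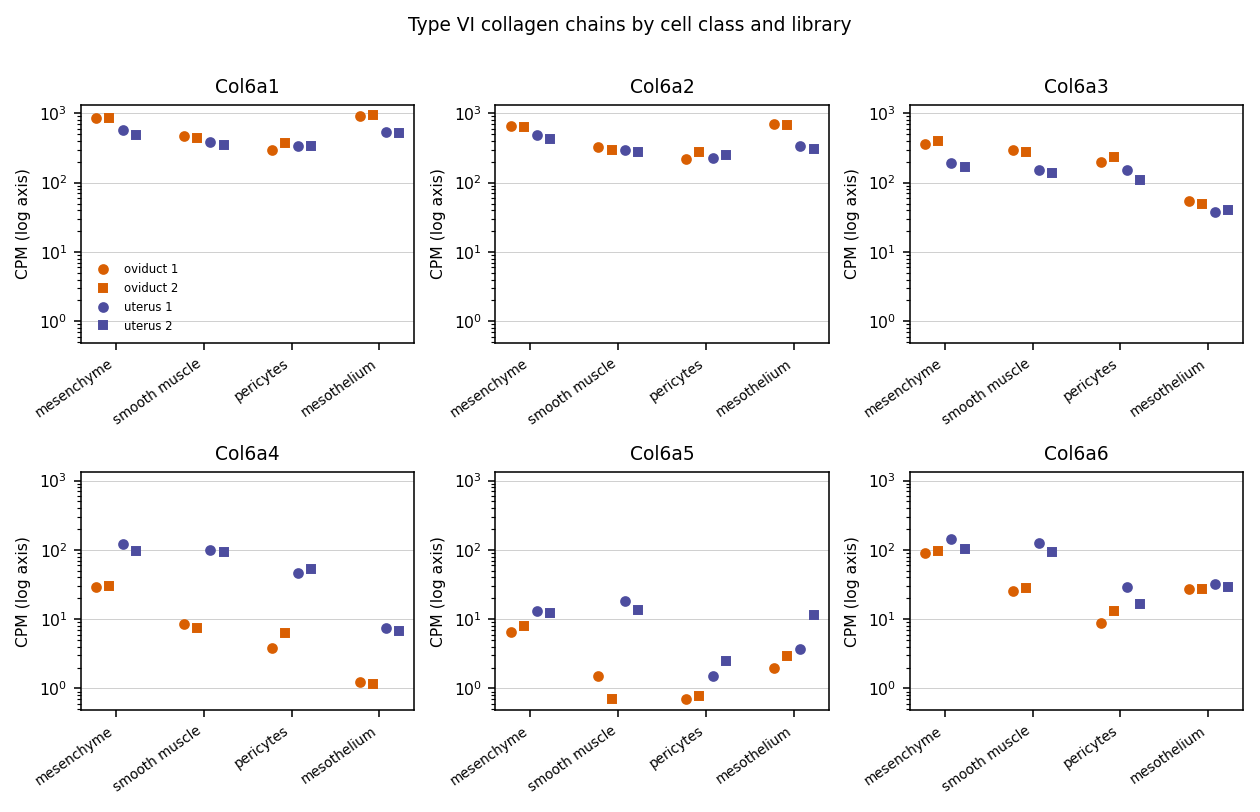
CPM (log axis) of the 6 type VI chains, 1 panel each, in mesenchyme, smooth muscle, pericytes and mesothelium, with 1 point for each library, orange for oviduct and blue for uterus. In smooth muscle the uterine points of Col6a4, Col6a5 and Col6a6 lie above the oviduct points, and those of Col6a3 lie below them, at 152 and 137 CPM against 293 and 280 CPM.

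Mesothelium had type VI chains in an unequal ratio. Col6a1 stood there at 923, 931, 534 and 513 CPM (0.84 ± 0.11), Col6a2 at 701, 672, 343 and 310 CPM (1.08 ± 0.11) and Col6a3 at 53.5, 49.1, 37.1 and 40.9 CPM (0.41 ± 0.15, not called). UMIs of Col6a1 per UMI of Col6a3 numbered 17.3, 19.0, 14.4 and 12.5, against 1.46 to 3.06 in mesenchyme, smooth muscle and pericytes. Against mesenchyme, mesothelium was lower in Col6a3 by -2.74 ± 0.15 and in Col6a4 by -4.48 ± 0.15. Averaged over the organs it did not differ detectably in Col6a1 (-0.12 ± 0.08) or Col6a2 (-0.34 ± 0.14). Within the oviduct, however, mesothelium lay above mesenchyme in both of these chains without overlap. In the uterus it lay below mesenchyme in Col6a2 without overlap, and the classes overlapped in Col6a1.

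Pericytes held 200, 236, 151 and 109 CPM of Col6a3 and were called between the organs (0.71 ± 0.14), but not without uterus library 2 (0.50). Blood endothelium held 22.2, 21.7, 11.7 and 11.8 CPM of Col6a1 (0.93 ± 0.20) and 11.1, 11.3, 4.06 and 3.18 CPM of Col6a3 (1.67 ± 0.30), with free-RNA bounds of 52.4% to 82.1% and 41.4% to 70.7%. The Col6a1 call was lost there without uterus library 2 (0.97) and under 6 of the other alternatives, and the Col6a3 call with clusters in place of gated cells (1.16, adjusted p = 0.061). Col6a2 at 13.5, 12.1, 9.40 and 11.2 CPM lay below mesenchyme by -5.65 ± 0.10, and Col6a6 at 0.605, 1.98, 2.03 and 1.68 CPM by -6.24 ± 0.17. Epithelium held 16.7, 10.5, 29.3 and 8.57 CPM of Col6a1, 3.65, 3.50, 12.9 and 1.90 CPM of Col6a3 and 0.421, 0.117, 1.43 and 0.476 CPM of Col6a4, below mesenchyme by -5.67 ± 0.32, -6.12 ± 0.47 and -6.96 ± 0.25. With 3 UMIs of Col6a5 in epithelium, mesenchyme exceeded it 57.8-fold (95% counting interval 19.7 to 281).

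The short-chain type VIII collagens form hexagonal networks and had opposite patterns. Col8a1 stood at 16.8, 18.3, 4.48 and 4.39 CPM in mesenchyme (1.95 ± 0.12, adjusted p = 3.0e-08) and 7.36, 6.65, 1.70 and 1.94 CPM in smooth muscle (1.91 ± 0.24). Col8a2 stood at 26.9, 29.0, 52.3 and 42.8 CPM in mesenchyme (-0.79 ± 0.10), 18.3, 15.2, 42.6 and 37.6 CPM in smooth muscle (-1.28 ± 0.12) and 41.4, 39.6, 122 and 106 CPM in mesothelium (-1.48 ± 0.13). The oviduct was thus higher in Col8a1 and the uterus in Col8a2 in both classes. UMIs of Col8a2 per UMI of Col8a1 in mesenchyme numbered 1.61 and 1.59 for the oviduct and 11.7 and 9.76 in the uterus. In epithelium Col8a1 ran the other way, at 2.25, 0, 8.58 and 15.2 CPM (-3.41 ± 0.71, adjusted p = 2.7e-03), with a free-RNA bound of at most 10.4%, but was not called by DESeq2 (-3.28) or with clusters found in all libraries (-0.080). Epithelial Col8a2 was called (-1.87 ± 0.65) at no more than 3.57 CPM, and not without either uterine library (-1.78 and -2.01) or with the replicate number as a block.
Mesothelium lay above mesenchyme in Col8a2 by 0.73 ± 0.14 (0.83 and not called without the library block, adjusted p = 0.12) and below it in Col8a1, at 1.02, 0.584, 1.26 and 6.14 CPM, by -3.66 ± 0.72. Pericytes held 5.91, 12.1, 10.1 and 11.0 CPM of Col8a2 and 6.60, 3.12, 1.12 and 2.53 CPM of Col8a1, below mesenchyme by -1.98 ± 0.16 and -1.70 ± 0.26. Blood endothelium had 0.202, 0.282, 0 and 1.68 CPM of Col8a2 (-6.05 ± 0.38). Smooth muscle lay below mesenchyme in Col8a1 by -1.24 ± 0.10.

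Col7a1 encodes the anchoring fibrils below epithelia, yet it was read mainly in stroma. It stood at 65.3, 55.3, 78.9 and 60.6 CPM in mesenchyme with the organs overlapping (-0.23 ± 0.12), at 5.56, 4.56, 24.9 and 20.8 CPM in smooth muscle (-2.19 ± 0.16) and at 22.9, 17.6, 45.3 and 48.6 CPM in pericytes (-1.24 ± 0.18). The uterus was higher in the last pair of classes, with no overlap. Epithelium held 1.83, 0.700, 4.29 and 0.476 CPM, with a free-RNA bound of 40.9% to 100%. Mesothelium, at 1.13, 0.918, 3.77 and 6.82 CPM, was called between the organs (-2.31 ± 0.54) with a bound of 46.2% to 100%. That call was lost without either oviduct library (-2.48 and -2.19) or without uterus library 2 (-1.83). Mesothelium and smooth muscle were below mesenchyme by -5.35 ± 0.37 and -2.31 ± 0.35.

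Transmembrane and secreted minor types made up the rest. Col13a1, a membrane-bound collagen, stood at 79.8, 71.2, 24.1 and 20.4 CPM in mesenchyme (1.74 ± 0.10), with 17.2, 16.4, 20.9 and 17.0 CPM in smooth muscle (-0.20 ± 0.13). Elsewhere it was scarce, at 0.702, 0.467, 0.715 and 0 CPM in epithelium, 0.537, 0.584, 0 and 0 CPM in mesothelium and 4.17, 7.41, 4.11 and 5.68 CPM in pericytes. These lay below mesenchyme by -6.94 ± 0.27, -7.25 ± 0.20 and -3.13 ± 0.28. Col23a1, also membrane-bound, stood at 41.8, 40.3, 8.59 and 8.78 CPM in mesenchyme (2.22 ± 0.10, adjusted p = 1.3e-09), 18, 20, 5.81 and 6.26 CPM in smooth muscle (1.63 ± 0.15), 9.73, 18.3, 5.61 and 3.79 CPM in pericytes (1.54 ± 0.37) and 13.2, 14.5, 3.57 and 6.19 CPM in epithelium (1.57 ± 0.34). All oviduct values were above all uterine ones in these 4 classes. The pericyte call was lost without oviduct library 2 (1.05) or uterus library 2 (1.27). Mesothelium held 4.56, 4.34, 1.89 and 3.41 CPM, below mesenchyme by -3.14 ± 0.23, and smooth muscle lay below it by -0.83 ± 0.13.

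Col26a1, a secreted collagen first described in testis and ovary, was higher in the uterus. It stood at 67.6, 70.7, 121 and 121 CPM in mesenchyme (-0.83 ± 0.08), 30.1, 39.2, 75.9 and 71.4 CPM in smooth muscle (-1.12 ± 0.12) and 20.5, 19.5, 43.8 and 51.5 CPM in pericytes (-1.29 ± 0.17). Epithelium (1.54, 0.584, 2.86 and 0.476 CPM) lay below mesenchyme by -6.23 ± 0.31, mesothelium (9.82, 8.18, 4.40 and 17.7 CPM) by -3.27 ± 0.25 and pericytes by -1.58 ± 0.11. Col25a1, a further membrane-bound type, stood at 6.56, 5.50, 11.8 and 8.47 CPM in mesenchyme (-0.75 ± 0.16). In smooth muscle it was at 2.60, 2.28, 3.67 and 5.20 CPM (-0.88 ± 0.28), a call lost without either oviduct library (-0.99 and -0.79) or without uterus library 2 (-0.59). Col17a1, the chain of epithelial hemidesmosomes, had 2 UMIs in epithelium and 173 in mesenchyme, a 13.8-fold difference (95% counting interval 3.76 to 115). It was higher in oviduct mesenchyme (1.44 ± 0.29) at no more than 2.01 CPM. Col24a1 had 3 UMIs in epithelium and 2 in blood endothelium, and mesenchyme was 12.2-fold (4.11 to 59.4) and 16.9-fold (4.63 to 140) higher.

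Settings other than a left-out library also ended organ calls, beyond those already given. DESeq2 did not call Col4a4 (-0.94), Col4a5 (0.69), Col8a2 (-1.91), Col9a3 (-1.90) and Col18a1 (0.64) in epithelium, Col11a2 (1.22) and Col20a1 (1.46) in mesenchyme or Col11a1 (-0.32), Col16a1 (-0.28), Col25a1 (-0.89) and Col27a1 (-0.38) in smooth muscle. In pericytes it did not call Col4a4 (1.68), Col4a6 (1.32), Col5a3 (-0.95), Col6a6 (-1.10) and Col23a1 (1.54), in mesothelium Col4a4 (-0.76), Col11a1 (1.03) and Col16a1 (-0.54), and in blood endothelium Col1a2 (1.00), Col5a1 (0.87) and Col6a1 (0.92). With the stricter gate Col5a2 (0.21), Col6a5 (-0.49), Col9a2 (0.0089), Col11a2 (0.99) and Col20a1 (1.35) in mesenchyme lost their calls, as did Col11a1 (-0.39) and Col25a1 (-0.90) in smooth muscle, Col6a6 in pericytes (-0.87), Col3a1 (-0.53) and Col16a1 (-0.55) in mesothelium and Col1a2 (0.68), Col5a1 (0.61) and Col6a1 (0.73) in blood endothelium.

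Clusters found in all libraries ended the epithelial calls of Col4a4 (-0.83), Col5a1 (-1.63), Col9a2 (1.33) and Col18a1 (0.36), the mesenchyme calls of Col6a6 (-0.36), Col17a1 (0.91) and Col25a1 (-0.53), and the smooth muscle calls of Col4a5 (0.44), Col5a1 (0.39), Col11a1 (-0.23) and Col16a1 (-0.58). The pericyte calls of Col4a6 (1.41), Col6a6 (-1.07) and Col23a1 (1.52) and the endothelial calls of Col1a2 (0.67), Col5a1 (0.60) and Col6a1 (0.69) ended with them as well. Clusters in place of gated cells ended those of Col6a1 in smooth muscle (0.087), of Col4a6 (1.33), Col6a6 (-0.90) and Col23a1 (1.5) in pericytes and of Col1a1 (0.40), Col1a2 (0.35), Col5a1 (0.50) and Col6a1 (0.45) in blood endothelium. With free RNA subtracted, Col4a1 (0.44), Col6a6 (-1.08) and Col23a1 (1.51) in pericytes, Col3a1 in mesothelium (-0.54) and Col5a1 (0.91) and Col6a1 (1.25) in blood endothelium were not called. With doublets kept, Col8a2 in epithelium (-1.34), Col16a1 in smooth muscle (-0.26), Col3a1 in mesothelium (-0.39) and Col6a1 in blood endothelium (0.50) lost theirs. Without the low-count filter Col8a2 in epithelium (-1.85) and Col11a1 (-0.32), Col16a1 (-0.28), Col25a1 (-0.88) and Col27a1 (-0.38) in smooth muscle were not called. The stricter cell filter ended the calls of Col8a2 in epithelium (-1.86), Col16a1 in smooth muscle (-0.27) and Col5a1 in blood endothelium (0.87), and size factors that of Col5a1 there (0.86).

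The remaining calls against mesenchyme were as follows. Lower in epithelium were Col15a1 (-5.63), Col6a2 (-5.56), Col7a1 (-5.52), Col16a1 (-4.99), Col5a3 (-4.95), Col8a2 (-4.70), Col5a1 (-4.68), Col5a2 (-4.68), Col6a6 (-4.24), Col25a1 (-3.80), Col4a6 (-3.31), Col12a1 (-2.96), Col14a1 (-2.81), Col27a1 (-2.54), Col4a5 (-2.41), Col9a2 (-1.57) and Col23a1 (-1.39). In smooth muscle the lower members not given above were Col5a3 (-1.80), Col25a1 (-1.17), Col24a1 (-1.12), Col3a1 (-1.02), Col1a2 (-0.81), Col26a1 (-0.79), Col6a2 (-0.78), Col6a1 (-0.67), Col5a1 (-0.65), Col27a1 (-0.55), Col16a1 (-0.55), Col1a1 (-0.54), Col9a2 (-0.47), Col8a2 (-0.41), Col5a2 (-0.38), Col6a3 (-0.29) and Col11a1 (-0.27). Only Col1a2, Col5a3, Col6a2 and Col18a1 were called in smooth muscle under every alternative in which they were tested.
Lower in pericytes were Col6a5 (-2.87), Col6a6 (-2.76), Col6a4 (-1.54), Col1a1 (-1.48), Col23a1 (-1.42), Col6a2 (-1.19), Col14a1 (-1.11), Col6a1 (-1.06), Col7a1 (-1.04, but 0.10 with clusters found in all libraries), Col11a1 (-1.03), Col16a1 (-1.03), Col27a1 (-0.93), Col1a2 (-0.84), Col3a1 (-0.73), Col6a3 (-0.69), Col5a2 (-0.42) and Col5a1 (-0.31). Mesothelium was also lower in Col24a1 (-3.37), Col25a1 (-3.15), Col9a2 (-2.38), Col17a1 (-2.24), Col6a6 (-2.01), Col11a1 (-1.69), Col12a1 (-1.5), Col6a5 (-1.44), Col4a1 (-1.10), Col16a1 (-0.99), Col4a2 (-0.74) and Col5a1 (-0.64). Blood endothelium was also lower in Col11a1, at 0.202, 0.282, 2.29 and 0.561 CPM (-5.81), and in Col6a1 (-5.50), Col6a3 (-5.40), Col16a1 (-5.36), Col8a1 (-5.31), Col7a1 (-5.25), Col6a5 (-5.20), Col9a2 (-5.06), Col6a4 (-4.98), Col4a5 (-4.83), Col5a1 (-4.40), Col27a1 (-3.77), Col5a3 (-3.56), Col26a1 (-3.33), Col13a1 (-3.28), Col23a1 (-3.09), Col5a2 (-2.78), Col12a1 (-2.57) and Col25a1 (-2.56). For Col20a1, with 2 UMIs in blood endothelium, mesenchyme was 8.49-fold higher (2.30 to 70.9).
Some of these calls were lost when 1 library was left out, often with a value of similar size. Without uterus library 2 the call of Col9a2 in epithelium (-1.28) was lost, and without either oviduct library that of Col12a1 in epithelium (-2.21 and -2.15). In mesothelium the calls of Col5a1 (-0.48 and -0.47), Col12a1 (-0.99 and -1.05), Col8a1 (-2.83 and -2.60) and Col17a1 (-2.31 and -1.93) were lost without either oviduct library. In pericytes that of Col5a1 was lost without either oviduct library (-0.22 and -0.23) or uterus library 2 (-0.37). In smooth muscle Col5a2 was lost without either uterine library (-0.30 and -0.32), Col16a1 without either oviduct library (-0.44 and -0.48) and Col11a1 without any 1 of the 4 (-0.20 to -0.33). Col8a2 was lost there without either oviduct library or uterus library 1 (-0.28 to -0.47), and Col24a1 without either oviduct library or uterus library 2 (-0.98 to -1.09). Without the library block the pericyte calls of Col3a1 (-0.82), Col4a4 (0.76), Col5a1 (-0.34), Col5a2 (-0.44), Col6a3 (-0.72), Col6a4 (-1.34), Col8a1 (-1.75), Col14a1 (-1.08), Col15a1 (-2.25) and Col23a1 (-1.49) were lost, with those of Col9a2 (-1.22) and Col23a1 (-1.28) in epithelium and Col15a1 in blood endothelium (0.93). Clusters found in all libraries ended the calls of Col4a4 (0.63), Col5a3 (0.55) and Col6a4 (-0.42) in pericytes, and clusters in place of gated cells those of Col4a4 (0.94) and Col12a1 (-2.94) in epithelium, Col5a1 in pericytes (-0.19) and Col5a1 (-0.50) and Col12a1 (-1.57) in mesothelium. Free RNA subtracted ended the last pair too (-0.63 and -1.61), and DESeq2 did not call Col4a4 (0.72) and Col5a1 (-0.30) in pericytes. The stricter gate ended the calls of Col4a4 (0.57) and Col7a1 (-0.79) in pericytes, and doublets kept that of Col6a5 in mesothelium (-0.76).

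Whether the organ effect itself differed between classes was tested by interaction. Between smooth muscle and mesenchyme, 22 of 39 members had different organ effects, 4 higher and 18 lower in smooth muscle, where 9.32% of genes were called (4.66% in each direction). Col12a1 (2.49), Col4a4 (1.75), Col14a1 (1.43) and Col5a2 (0.44) leaned further to the oviduct in smooth muscle than in mesenchyme. The largest shifts toward the uterus, relative to mesenchyme, were those of Col6a5 (-2.97), Col7a1 (-1.96) and Col13a1 (-1.93). Such a shift does not give the direction within the class. With only the cells of clusters that hold the class in all libraries, 9 were called, with 4.05% of genes. Between epithelium and mesenchyme 17 of 39 were called, 4 higher and 13 lower, against 19.6% of genes (12.5% higher, 7.12% lower), and with those clusters alone 1 was called, with 1.81% of genes. Relative to mesenchyme, the largest shifts in epithelium were those of Col8a1 (-5.33) and Col12a1 (-3.97) toward the uterus and of Col11a1 (3.27) and Col9a2 (1.92) toward the oviduct.

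Oviduct epithelium lay to a large part in cluster 23, which held 84 and 147 oviduct cells and was absent from the uterus, and its 10 leading genes include the epithelial gene Epcam and the ciliated cell genes Dynlrb2 and Pifo. When only the cells of clusters found in all libraries were kept, edgeR called 0 of 18 tested members, with 663 of 9123 genes at an unadjusted p under 0.05 and 69 (0.756%) called. This left 65 and 105 oviduct cells with median UMIs of 3295 and 2629. Over the full epithelial class the medians were 18545, 13872, 6394 and 2908 UMIs. Only Col11a1 and Col23a1 were called in epithelium under every alternative in which they were tested, but neither passed the low-count filter in the cells of those shared clusters, so that neither was tested there.

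Inside mesenchyme the collagens were not uniform. Cluster 9, led by the neurofilament genes Nefm and Nefl and by Cxcl13, Pi15 and Agtr2, with the matrix genes Dpt, Postn and Lum next, had the highest Col1a1 in both organs, at a mean of 4449 CPM in the oviduct and 7005 CPM in the uterus. The lowest clusters were at 1345 CPM (cluster 4, otherwise mostly mesothelium) and 613 CPM (cluster 21). Col1a2, Col3a1, Col5a1, Col5a2 and Col14a1 were highest in cluster 9 in both organs as well. Col14a1 spanned the widest range of these, from 12.9 CPM (cluster 0) to 352 CPM in the oviduct and from 0.726 CPM (cluster 1) to 484 CPM in the uterus. Cluster 9 held 374 and 255 mesenchyme cells of the oviduct libraries and 47 and 31 of the uterine ones. There the uterine values of Col1a1, Col1a2, Col3a1, Col5a1, Col5a2 and Col14a1 lay above the oviduct values, without overlap of the libraries. Col1a2 had means of 3452 CPM in the oviduct and 6474 CPM in the uterus, Col3a1 4057 and 6171 CPM, and Col5a1 481 and 519 CPM. This order was the reverse of mesenchyme as a whole, where all of them were called higher in the oviduct. Col4a2, Col5a3 and Col16a1 were likewise highest in cluster 9 in both organs, but did not share 1 order. Oviduct libraries stood at 93.6 and 94.8 CPM of Col4a2 against 132.8 and 133.2 CPM in the uterus. For Col5a3 the oviduct was higher, at 45.6 and 47.8 CPM against 23.0 and 34.4 CPM, and Col16a1 overlapped. Such separation was not counted over all genes. The clusters hold different cells of the same 4 libraries, so that their values are given as a description.

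Other members peaked elsewhere. In the oviduct, Col4a5 (427 CPM), Col4a6 (190 CPM), Col6a1 (1064 CPM), Col6a3 (451 CPM), Col7a1 (132 CPM), Col13a1 (165 CPM) and Col15a1 (220 CPM) were highest in cluster 0, which is led by Aldh1a1, Wnt16 and Enpp2. Col12a1 was highest in cluster 2 in the oviduct (319 CPM) and in cluster 9 in the uterus (326 CPM). Col15a1, low in uterine mesenchyme as a whole, reached 205 CPM in uterine cluster 9. Col6a4 (193 CPM) and Col26a1 (150 CPM) were highest in uterine cluster 1, which is led by Tex15, Plac8 and Hoxd11, and Col6a4 was at 2.79 CPM in uterine cluster 9.

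The enzymes, chaperones and receptors that handle collagen were followed with a list of 43 genes, chosen like the members with earlier results known. Between the organs 24 of 39 were called in mesenchyme, 18 oviduct-high and 6 uterus-high, and 20 of 39 in smooth muscle, 13 and 7. Epithelium had 12 of 30, 6 and 6, mesothelium 5 of 31, all higher in the uterus, pericytes 2 of 35 and blood endothelium 0 of 26 by edgeR, with 1443 of all genes at an unadjusted p under 0.05. Of all genes, 37.7% were called in mesenchyme, 30.5% in smooth muscle, 22.9% in epithelium, 8.70% in mesothelium, 5.43% in pericytes and 3.83% in blood endothelium, so that the pericyte share of 5.71% was near the background. The collagen chaperone Serpinh1 stood at 575, 579, 509 and 542 CPM in mesenchyme, 504, 527, 537 and 596 CPM in blood endothelium and 111, 104, 139 and 140 CPM in epithelium. Values of oviduct and uterus stayed apart in each of these 3 classes, but Serpinh1 was called between the organs in none of the 7 classes. Epithelium lay below mesenchyme by -2.28 ± 0.10.

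The collagen-binding integrins Itga1 and Itga2 had the largest uterine excess of this list in mesenchyme. Itga1 stood at 7.18, 9.49, 48.6 and 48.9 CPM in mesenchyme (-2.59 ± 0.12) and 85.8, 76.7, 165 and 164 CPM in smooth muscle (-1.04 ± 0.09). Itga2 stood at 0.786, 0.758, 6.87 and 5.94 CPM in mesenchyme (-3.06 ± 0.21) and 2.60, 1.29, 6.53 and 5.82 CPM in smooth muscle (-1.67 ± 0.30). In epithelium Itga2 ran the other way, with 76 oviduct UMIs and 0 uterine UMIs, at least 5.65-fold higher against a floor of 3 UMIs over the uterine sums. P4ha3, a collagen prolyl hydroxylase chain, stood at 2.52, 2.67, 4.37 and 5.14 CPM in mesenchyme (-0.91), and Adamts3, a procollagen protease, at 0.269, 0.893, 2.06 and 2.73 CPM in smooth muscle (-2.09).

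Of the 4 cross-linking genes tested, 2 were called higher in oviduct mesenchyme and 3 in oviduct smooth muscle, and none lower in either, where 37.7% and 30.5% of all genes were called in these classes. The cross-linking enzyme Loxl2 stood at 45.3, 47.9, 18.2 and 18.2 CPM in smooth muscle (1.33 ± 0.10), and the membrane collagenase Mmp14 at 187, 194, 111 and 99.5 CPM in mesenchyme (0.84 ± 0.08). In mesenchyme the largest oviduct excess was that of Mmp9 (1.83), Tll1 (1.38) and Itga10 (1.19), at 0.682, 0.527, 0.208 and 0.133 CPM, 2.46, 2.37, 0.937 and 0.886 CPM, and 1.90, 2.01, 0.937 and 0.754 CPM. In smooth muscle it was that of Itga10 (2.14), at 2.96, 4.37, 0.447 and 1.15 CPM, P3h2 (1.53), at 11.7, 11.9, 4.29 and 3.70 CPM, and Tll1 (1.44). Lox, which starts cross-links of fibrillar collagen, was higher in uterine mesothelium, at 93.1, 125, 253 and 291 CPM (-1.31 ± 0.15), as was Pcolce, which aids the trimming of procollagen, at 116, 101, 236 and 218 CPM (-1.05 ± 0.12). In epithelium P3h2 stood at 12.2, 16.6, 1.43 and 0.952 CPM (3.76 ± 0.49). Tll1 had 89 UMIs in oviduct and 3 in uterine epithelium, a 6.62-fold difference (95% counting interval 2.19 to 32.7). Higher in uterine epithelium were Loxl2 (-1.44), at 4.92, 4.32, 14.3 and 13.3 CPM, Pcolce (-1.39), at 5.90, 5.02, 15 and 16.2 CPM, and Fkbp10 (-0.86), at 14.9, 14.9, 30 and 29.5 CPM.

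Col4a3 was also called in mesenchyme (1.83 ± 0.34), at no more than 1.78 CPM. Tested and not called between the organs in mesenchyme were Col4a1, Col4a2, Col7a1, Col9a3, Col11a1, Col22a1, Col24a1 and Col27a1. Not tested in any comparison were Col2a1 (29 UMIs in all kept cells), Col9a1 (46), Col10a1 (12), Col19a1 (11) and Col28a1 (13). Col28a1 had 8 of its 13 UMIs in 6 cells of blood endothelium. Nt5dc1 overlaps Col10a1 and Gm16308 overlaps Col22a1 on the other strand.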

How the data were processed

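Single-cell RNA of 2 oviduct and 2 uterus libraries (10x Chromium 3′ v3.1) was analysed from the deposited matrices of UMI counts, made with Cell Ranger 6.0.1 for the filtered and Cell Ranger 4 for the raw matrices, per the file headers. Seurat 4.2.3 and mm10 are named in the submitters' processing notes, and no annotation, strand or intron setting was given in the sources used here. Barcodes were kept with at least 500 genes and at most 15% mitochondrial counts, and the cells with the highest Scrublet scores (0.8% per 1000 barcodes) were removed, since Scrublet's own threshold marked at most 2 cells of a library.

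Cells were assigned to classes by marker scores of at least 0.2. A class other than mesenchyme and smooth muscle needed a lead of at least 0.1 over the other such classes. No lead over the mesenchyme or smooth muscle score was asked of it. Cells that reached the score for none of those classes went to mesenchyme or smooth muscle by a lead of at least 0.05 between them. Thresholds were set after marker scores by cluster were seen. Members, gene lists and tests were chosen with earlier results of these data known. Counts were summed per library and class and tested with edgeR 4.0.16 (quasi-likelihood F-test, TMM, filterByExpr), with Benjamini-Hochberg adjustment over all genes tested. The SE is the log2 fold change divided by the square root of F. Class comparisons carry a library term, and interactions compare organ effects. DESeq2 1.42.0 was an alternative. Some of the tests were also run on simulated counts with a fixed spread and known changes. These held no differences in cell mix, so that they do not vouch for the calls made here. Named genes are the 8 called members of largest change in each direction among those that pass the level filter, with the other called members by symbol and fold change, and the 3 largest per direction of the list of 43 processing genes. Library totals ran from 61117726 to 114419939 UMIs. Counting intervals cover counting error only. Promoter windows come from RefSeq (GRCm38.p6), with entries for 35 of 44 members.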

Additional observations from a re-analysis of the deposited data

Results flagged for a closer look

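A test of the difference itself (an interaction term, edgeR, adjusted p under 0.05) found 39 member results in which the organ effect of a class differed from that of mesenchyme. Values are the log2 organ effect in the class minus that in mesenchyme. A negative value leans less to the oviduct, or more to the uterus, than in mesenchyme. It does not give the direction within the class: Col15a1 and Col23a1, negative here in smooth muscle, were called oviduct-high there.

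In epithelium 17 members differed. Negative were Col8a1 (-5.33), Col12a1 (-3.97), Col9a3 (-2.68), Col22a1 (-2.36), Col4a4 (-1.98), Col5a1 (-1.92), Col6a3 (-1.68), Col4a6 (-1.29), Col14a1 (-1.17), Col3a1 (-1.13), Col18a1 (-0.97), Col1a1 (-0.79) and Col1a2 (-0.70). Positive were Col11a1 (3.27), Col9a2 (1.92), Col27a1 (1.07) and Col4a2 (0.58). The epithelial free-RNA bounds were 74.0% to 100% for Col1a1, 51.5% to 73.9% for Col1a2, 57.4% to 79.8% for Col3a1 and 41.7% to 100% for Col6a3. With free RNA subtracted, Col3a1 (-1.67) and Col6a3 (-3.19) were still called by edgeR, Col1a2 (-0.70) was not, and Col1a1 turned to 8.13 and was not called. With the stricter gate Col1a1 (0.13) and Col1a2 (0.52) changed sign, as did Col1a2 (0.19), Col6a3 (0.015) and Col4a2 (-0.33) with clusters found in all libraries. Of the 17, Col5a1 kept its call under every alternative in which it was tested.

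In smooth muscle 22 members differed. Negative were Col6a5 (-2.97), Col7a1 (-1.96), Col13a1 (-1.93), Col18a1 (-1.82), Col6a4 (-1.71), Col6a6 (-1.65), Col15a1 (-1.19), Col4a5 (-0.99), Col4a6 (-0.87), Col23a1 (-0.59), Col16a1 (-0.53), Col8a2 (-0.48), Col1a2 (-0.41), Col6a1 (-0.38), Col6a2 (-0.38), Col3a1 (-0.37), Col5a1 (-0.28) and Col1a1 (-0.25). Positive were Col12a1 (2.49), Col4a4 (1.75), Col14a1 (1.43) and Col5a2 (0.44). The sign changed with the stricter gate for Col1a1 (0.12) and Col5a1 (0.027), and with clusters found in all libraries for Col1a1 (0.10), Col4a6 (0.038) and Col6a1 (0.080). Calls of Col4a4, Col5a2, Col6a4, Col6a6, Col12a1, Col13a1 and Col16a1 were made under every alternative in which they were tested.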

How the results depend on the processing

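Of 292 called member results, 161 were called under every alternative in which they were tested. The share of all genes called also moved with the setting. For smooth muscle against mesenchyme it went from 20.1% to 4.09% without the library block. The counts of this section are given without that share and are no result about collagens alone. Clusters found in all libraries, an alternative chosen after the clusters had been seen, left 0 organ calls in epithelium, 16 in smooth muscle and 5 in blood endothelium, and 1 and 9 interactions in epithelium and smooth muscle. DESeq2 called 6 in epithelium, 8 in pericytes, 5 in blood endothelium, 1 in myeloid cells and 10 epithelial interactions. In blood endothelium 4 were called with free RNA subtracted, 3 with clusters in place of gated cells and 5 with the stricter gate, which gave 10 epithelial interactions. Myeloid cells had 3 without the low-count filter. Leaving out 1 library gave 28 to 30 calls for mesenchyme, 7 to 14 for epithelium, 12 to 16 for pericytes, 19 to 23 for smooth muscle, 5 to 9 for blood endothelium, 9 to 14 for mesothelium and 0 to 2 for myeloid cells, and 11 to 16 and 19 to 24 interactions in epithelium and smooth muscle.

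Each uterine library shares neonates with 1 oviduct library, but the labels tie no number to a pool, and the deviations of same-numbered libraries correlated at -0.14 (epithelium) to 0.22 (mesenchyme). A replicate block gave 31 organ calls for mesenchyme, 10 for epithelium, 14 for pericytes, 26 for smooth muscle, 8 for blood endothelium, 18 for mesothelium and 2 for myeloid cells, ended 4 calls (Col8a2 and Col18a1 in epithelium, Col16a1 in mesenchyme, Col4a1 in pericytes) and added 7 (Col9a3 in mesenchyme, Col25a1 in pericytes, Col4a2, Col5a3 and Col6a5 in mesothelium, Col1a1 and Col3a1 in myeloid cells). Without a library block the class comparisons had 20 calls for pericytes, 30 for epithelium, 23 for mesothelium, 5 for smooth muscle and 32 for blood endothelium.

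Some member values changed sign. With clusters found in all libraries these were the organ effects of Col4a5 in epithelium (-0.29), Col9a2 in mesenchyme (-0.19) and Col6a2 in pericytes (-0.44, and -0.48 with clusters in place of gated cells). Against mesenchyme they were Col18a1 in epithelium (0.69), Col7a1 in pericytes (0.10), and Col5a3 (-1.45) and Col14a1 (-0.33) in mesothelium. The interactions were Col6a3 (0.015), Col1a2 (0.19) and Col4a2 (-0.33) in epithelium and Col6a3 (0.75), Col4a6 (0.038), Col6a1 (0.080) and Col1a1 (0.10) in smooth muscle. The stricter gate turned Col16a1 (-0.047), Col1a2 (-0.064) and Col6a6 (0.14) in mesenchyme, and the interactions of Col1a2 (0.52) and Col1a1 (0.13) in epithelium and Col5a1 (0.027) and Col1a1 (0.12) in smooth muscle. Clusters in place of gated cells turned Col4a4 in pericytes against mesenchyme (-0.18). With free RNA subtracted, the epithelial interactions of Col6a2 (3.48) and Col1a1 (8.13) turned. The cause was not tested. The stricter cell filter gave no myeloid value, with under 20 cells in a library.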

Other observations

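Some members lie next to each other on GRCm38.p6. Col3a1 and Col5a2 lie 24624 bases apart on chromosome 1. Their organ effects were 1.09 and 0.67 in mesenchyme and -0.44 and -0.91 in mesothelium. The Col5a2 call in mesenchyme was lost with the stricter gate (0.21). That of Col3a1 in mesothelium was lost without uterus library 1 (-0.26) or oviduct library 1 (-0.47), with the stricter gate (-0.53), with free RNA subtracted (-0.54) and with doublets kept (-0.39). Col9a1 and Col19a1, 4944 bases apart on the same chromosome, had 46 and 11 UMIs in all kept cells.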
